A study of Mus musculus with 60 samples.

Results

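The genes described are 45 members of the DNA replication machinery, listed by name by the roles of origin licensing, the replicative helicase, the polymerases, the sliding clamp and its loader, nucleotide supply and the E cyclins. The list follows roles and uses no threshold on the counts, though it was drawn up with earlier results of these data known. All 45 were found among 23393 genes in the deposited table of normalised counts and passed the filter on low values that left 10720 genes for testing. They were measured by poly-A selected RNA sequencing in erythroblasts, the nucleated precursors of red blood cells, sorted from fetal livers of C57BL/6 mice. Embryos were wild type or Gata1s, whose GATA1 protein, the leading transcription factor of erythroid cells, lacks its N-terminal part, and no other allele or agent is given by the labels. Livers were taken on embryonic day E12.5 or E14.5 and sorted by CD71 and Ter119, surface proteins of young and of maturing erythroid cells, into R1/2 (high CD71, Ter119 absent or low) and the more mature R3 (high CD71, high Ter119). Of 9 wild type libraries, 2 were of R1/2 and 3 of R3 at E12.5, with 2 of each sort at E14.5. Of 11 Gata1s libraries, 4 were of R1/2 and 2 of R3 at E12.5, with 3 and 2 at E14.5. The labels do not say that replicates came from separate embryos, and the p-values reflect no more than how these libraries vary.

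In each cell cycle an origin recognition complex, with Cdc6 and Cdt1, loads MCM helicases onto chromatin, and cyclin E with its kinase helps to fire these origins. Cdc45 and the GINS complex then turn the helicase on, polymerases alpha, delta and epsilon copy the strands, and ribonucleotide reductase and thymidylate synthase supply the nucleotides. Erythroblasts divide rapidly while they mature, and S phase is tied to the switch by which erythroid precursors become dependent on erythropoietin and begin terminal maturation.

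Libraries held 6.9 to 32.7 M recovered reads, and the 4 of E14.5 R3 held 6.9 to 15.8 M. In E14.5 R3, Gata1 itself read 13744 to 14197 normalised counts with the Gata1s allele against 9614 to 10803 without it, which does not check the allele, since a count per gene does not see a missing N-terminal part. The summed level of 8 erythroblast markers was 1237137 to 1247682 in Gata1s E14.5 R3 libraries, within the wild type range of 1163603 to 1680965, against 31942 to 85251 in R1/2 libraries. All 8 were detected in every group, and none was at 0. The sum of 6 megakaryocyte markers was higher in Gata1s than in wild type libraries of each day and sort, reaching 2629 to 3478 against 471 to 576 in E14.5 R3.

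Replication genes had lower normalised counts in Gata1s than in wild type libraries of E14.5 R3. Tested with limma on log2 values over all 10720 genes, with Benjamini-Hochberg adjusted p under 0.05 as the threshold, 37 of the 45 members were called and all 37 fell, while 20.7% of all genes tested fell. edgeR on the recovered reads, which called 15.3% of all genes lower, called 30 members lower, and all 30 were also called by limma. It called 0 members higher, while over all genes it called nearly as many higher as lower. The median member differed by a log2 of -0.41, beside -0.05 over all genes tested. Libraries of the 2 genotypes did not overlap, with Gata1s lower, for 38 members, against 31.5% of all genes. Counts per library carry no correction for the prefix of library names (JC or MS, meaning not given). Both Gata1s libraries of E14.5 R3 had MS, and wild type had 1 of each. In the other day and sort combinations most members differed little, as the plot of genotype differences shows.

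**Figure D1:**
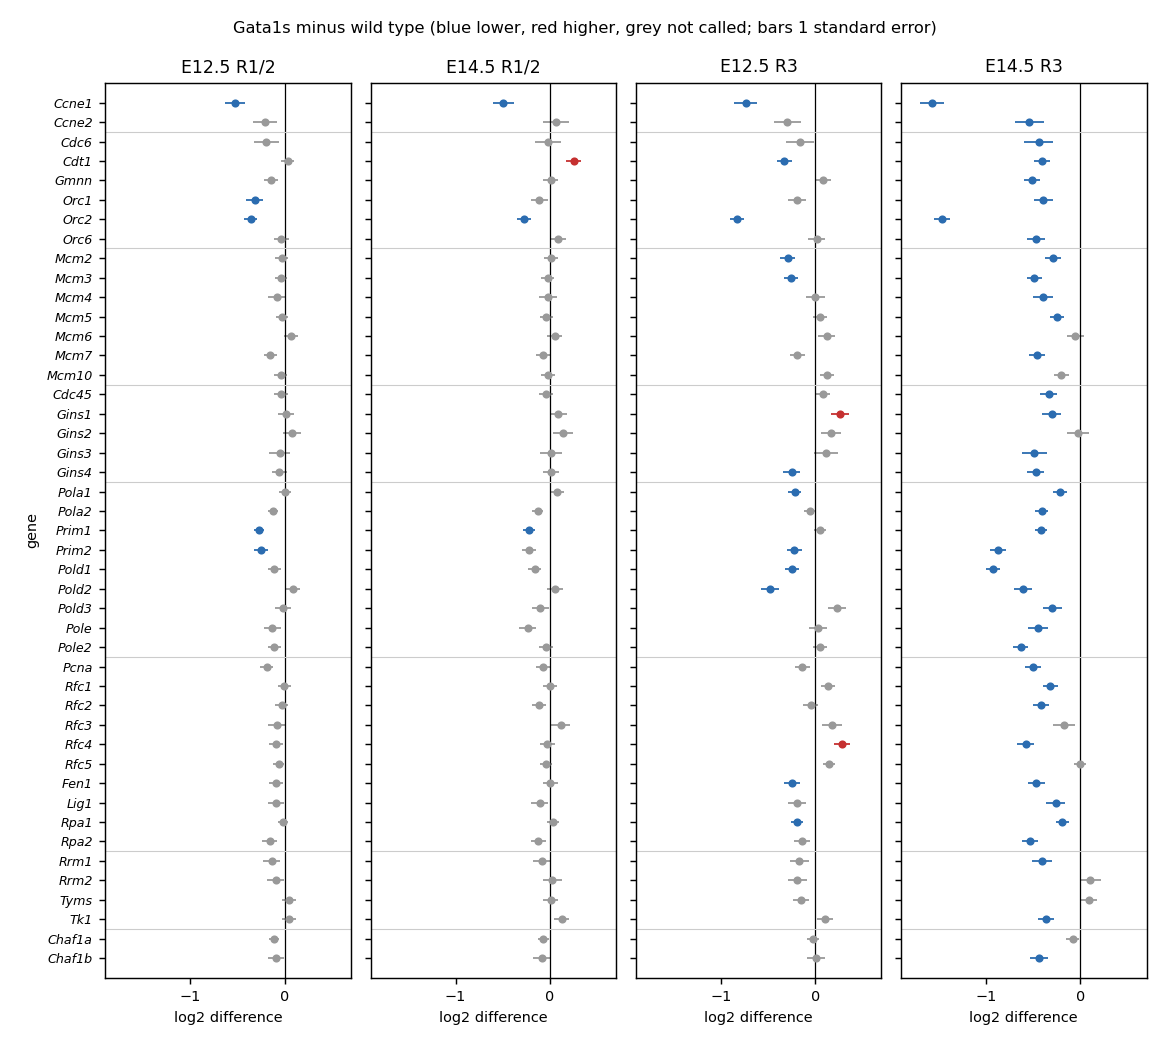
Log2 difference between Gata1s and wild type (x axis) for each of the 45 genes (y axis, grouped by role) in the 4 combinations of day and sort, with bars of 1 standard error from limma. Blue marks genes called lower, red called higher and grey not called; 37 points are blue in E14.5 R3, against 5, 3 and 12 in E12.5 R1/2, E14.5 R1/2 and E12.5 R3.

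The widest gaps lay at 2 genes that act at origins, Ccne1 and Orc2. Ccne1 encodes cyclin E1, which with its kinase drives entry into S phase. Its normalised counts in E14.5 R3 were 4979 and 3839 in wild type and 1630 and 1333 in Gata1s libraries. In E12.5 R3 they were 4495, 4338 and 4209 in wild type and 2479 and 2756 in Gata1s. Both Gata1s libraries thus lay below every wild type library of the same day and sort. In R1/2 the counts were 3377 and 3119 against 2096, 2116, 2476 and 2365 at E12.5, and 3254 and 3620 against 2375, 2393 and 2538 at E14.5. The genotypes did not overlap there either. The log2 difference of Ccne1 was -1.57 (SE 0.13, adjusted p = 1.27e-07) in E14.5 R3, 0.337 of the wild type level, and -0.74, -0.52 and -0.50 in E12.5 R3, E12.5 R1/2 and E14.5 R1/2 (adjusted p = 1.69e-04, 0.00432 and 0.00889).

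Orc2 encodes a subunit of the origin recognition complex. Its normalised counts in E14.5 R3 were 3428 and 3532 in wild type and 1383 and 1223 in Gata1s libraries, and in E12.5 R3 they were 3921, 3538 and 3967 against 2175 and 2285. In R1/2 they were 3395 and 3333 against 2458, 2473, 2767 and 2816 at E12.5, and 2994 and 3461 against 2701, 2687 and 2672 at E14.5. Gata1s libraries were lower than every wild type library in all 4 combinations. The log2 difference was -1.46 (SE 0.08, adjusted p = 3.13e-09) in E14.5 R3, 0.362 of the wild type level, and -0.83, -0.36 and -0.28 in E12.5 R3, E12.5 R1/2 and E14.5 R1/2 (adjusted p = 1.22e-06, 0.00293 and 0.0236). Ccne1 and Orc2 were the 2 members called lower in all 4 combinations. Of the rest, 2 were called lower in 3 combinations, 10 in 2, 23 in 1 and 8 in none. Cdt1, Gins1 and Rfc4 were each also called higher in 1 combination.

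**Figure D2:**
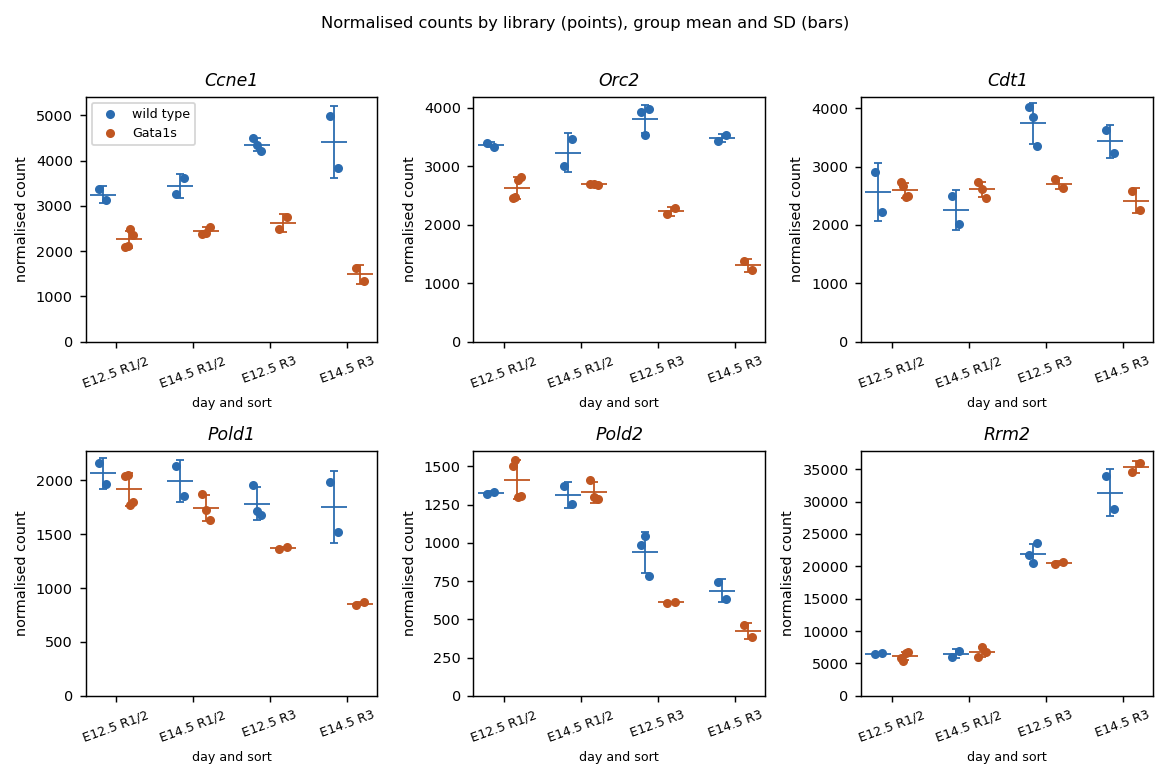
Normalised counts of 6 replication genes (y axes, starting at 0) by day and sort (x axes), with 1 point per library, blue for wild type and orange for Gata1s, and bars for the group mean and SD. Ccne1 and Orc2 lie lower in Gata1s in all 4 combinations, Pold1 most clearly in E14.5 R3 with 844 and 867 against 1988 and 1520, and Rrm2 overlaps between genotypes in R1/2 and is far higher in R3 of both.

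The other E cyclin and the licensing factors moved less. Ccne2, which encodes cyclin E2, read 1661 and 1459 in wild type and 1298 and 1067 in Gata1s libraries of E14.5 R3. It read 1130, 1299 and 1325 against 1148 and 1165 in E12.5 R3, where the genotypes overlapped. In R1/2 it read 467 and 552 against 396, 349, 496 and 547 at E12.5, and 429 and 549 against 430, 616 and 542 at E14.5, again with overlap. The log2 difference was -0.54 in E14.5 R3 (SE 0.15, adjusted p = 0.0110) and passed the threshold in none of the other 3 combinations. That call was lost without wild type replicate 1 of E14.5 R3 (-0.31) and without Gata1s replicate 2 (-0.40), without the term for library name prefixes (-0.40), and also in libraries whose names begin with MS, 1 of 2 name prefixes whose meaning is not given (-0.31).

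Cdt1, which loads the MCM helicase, read 3636 and 3230 in wild type and 2574 and 2263 in Gata1s libraries of E14.5 R3, and 4031, 3845 and 3357 against 2780 and 2639 in E12.5 R3. In R1/2 it read 2916 and 2214 against 2736, 2669, 2481 and 2494 at E12.5, and 2495 and 2019 against 2736, 2620 and 2468 at E14.5. Gata1s libraries lay below wild type in both R3 sets and overlapped with it in both R1/2 sets. The log2 difference was -0.40 in E14.5 R3 (SE 0.08, adjusted p = 0.00135), -0.33 in E12.5 R3 (adjusted p = 0.00433) and 0.25 in E14.5 R1/2 (adjusted p = 0.0444). The rise in E14.5 R1/2 was lost under many of the alternatives, among them leaving out either wild type library (0.31 without replicate 1 and 0.19 without replicate 2) or Gata1s replicate 2 or 3 (0.21 and 0.25), and Cdt1 in E12.5 R3 was not called under upper-quartile scaling (-0.17) or quantile normalisation (-0.03).

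Geminin, encoded by Gmnn, binds Cdt1 and blocks a repeat of licensing. It read 2132 and 2389 in wild type and 1534 and 1724 in Gata1s libraries of E14.5 R3, and 2029, 1726 and 1833 against 1983 and 2126 in E12.5 R3. In R1/2 it read 1414 and 1505 against 1254, 1291, 1358 and 1361 at E12.5, and 1301 and 1462 against 1351, 1472 and 1381 at E14.5. The genotypes overlapped in E12.5 R3 and E14.5 R1/2, and Gata1s lay below wild type in the other two sets. The log2 difference of Gmnn was -0.52 in E14.5 R3 (SE 0.09, adjusted p = 2.12e-04), and 0.09, -0.15 and 0.01 in E12.5 R3, E12.5 R1/2 and E14.5 R1/2, none past the threshold. All 6 licensing genes were called lower in E14.5 R3. Beside those above they were Cdc6, the loader of the helicase (-0.44), and the origin recognition subunits Orc1 (-0.39) and Orc6 (-0.47). Cdc6 was called by limma and not by edgeR.

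Among the 7 MCM genes, which encode the helicase ring and the associated factor Mcm10, 5 fell in E14.5 R3. Mcm3 showed the widest gap, with 12059 and 10260 normalised counts in wild type and 8157 and 7484 in Gata1s libraries (log2 difference -0.49, SE 0.08, adjusted p = 1.31e-04). Mcm6 overlapped between genotypes, with 13738 and 12961 against 13674 and 12344, and its difference was -0.06 (95% interval -0.25 to 0.14). Mcm2, Mcm4, Mcm5 and Mcm7 differed by -0.29, -0.40, -0.25 and -0.46. Mcm10 differed by -0.20 and was not called.

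Cdc45 and 3 of the 4 GINS genes, whose products join the MCM ring to form the active helicase, also fell, by 0.34 on the log2 scale for Cdc45, 0.30 for Gins1, 0.49 for Gins3 and 0.48 for Gins4. Gins2 differed by -0.03 and was not called. Gins1 and Mcm5 were called by limma and not by edgeR.

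All 9 polymerase genes fell in E14.5 R3, with a median log2 difference of -0.45. Pold1, the catalytic subunit of polymerase delta, read 1988 and 1520 in wild type and 844 and 867 in Gata1s libraries. Prim2, the large subunit of primase, read 2534 and 2635 against 1464 and 1352. The genotypes were well apart for both, with log2 differences of -0.92 (SE 0.08, adjusted p = 2.04e-07) and -0.88 (SE 0.09, adjusted p = 9.15e-07). Pold2, another subunit of polymerase delta, read 743 and 633 against 461 and 385 and differed by -0.61 (SE 0.10, adjusted p = 1.39e-04). Pole2, a subunit of polymerase epsilon, read 931 and 977 against 645 and 630 and differed by -0.63 (SE 0.08, adjusted p = 1.84e-05). Pole, its catalytic subunit, differed by -0.45, and Pola2 and Prim1, which belong to the polymerase alpha and primase complex that makes primers, by -0.41 and -0.42. Pola1 (-0.21) and Pold3 (-0.30) were called by limma and not by edgeR.

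At the fork itself 8 of 10 genes were lower. Pcna, the sliding clamp, read 25637 and 26546 in wild type and 20459 and 18297 in Gata1s libraries (log2 difference -0.50, SE 0.09, adjusted p = 2.18e-04). The clamp loader genes Rfc1, Rfc2 and Rfc4 differed by -0.32, -0.42 and -0.58, while Rfc3 (-0.17) and Rfc5 (-0.00) were not called. Fen1, the nuclease that trims Okazaki fragments, and Rpa2, a subunit of the protein that coats single strands, differed by -0.47 and -0.53. Lig1, the ligase that joins the fragments, and Rpa1 differed by -0.26 and -0.19, and both were called by limma and not by edgeR.

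Genes of nucleotide supply divided. Rrm2, the small subunit of ribonucleotide reductase, read 33970 and 28808 in wild type and 34630 and 36002 in Gata1s libraries of E14.5 R3, so its Gata1s libraries were the higher ones. Tyms, thymidylate synthase, read 4710 and 4599 against 4713 and 5191. Neither was called, with differences of 0.11 (95% interval -0.13 to 0.34) for Rrm2 and 0.09 (-0.10 to 0.28) for Tyms. Rrm1, the large subunit of the same reductase, and Tk1, thymidine kinase, fell by 0.41 and 0.37 on the log2 scale. Of the histone chaperone subunits that act behind the fork, Chaf1b fell by 0.44 and Chaf1a differed by -0.08, not called.

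The count in E14.5 R3 was 24 without Gata1s replicate 2, 30 under upper-quartile scaling and under quantile normalisation, and with libraries of prefix MS only 33 were lower and 1 higher. In a fit of these 4 libraries alone, which has 1 residual degree of freedom, it was 1. The MS libraries of E14.5 R3 were 2 of Gata1s and 1 of wild type, the latter with 6.9 M reads. Markers of other cell types moved with the genotype there, each without overlap. The summed level of 9 macrophage markers was 177 to 199 in Gata1s, below the 450 to 567 of wild type. That of 8 hepatoblast markers was 78 to 188 against 321 to 3697, that of 8 neutrophil and monocyte markers 765 to 1151 against 1294 to 2958, and that of 4 mast cell and basophil markers 7 to 8 against 24 to 31. Among the last, Mcpt8, Prss34 and Cma1 were at 0 in both Gata1s libraries. None of these 4 markers passed the filter on low values. In the Gata1s libraries 1 read was worth 3.69 and 2.69 normalised counts, so their mast cell and basophil sums rest on very few reads. The sum of 5 endothelial markers was higher in Gata1s, at 127 to 136 with Tek at 0, against 74 to 99, and so was that of megakaryocyte markers, given above. The part of any of these lists in the members' differences was not tested, and in bulk samples fewer cells of a type and less RNA per cell cannot be told apart.

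**Figure D3:**
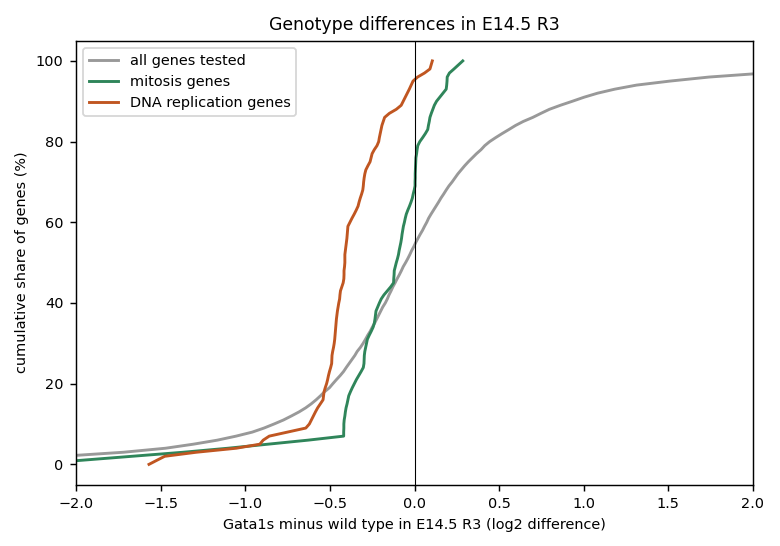
Cumulative share of genes in % (y axis) against the log2 difference between Gata1s and wild type in E14.5 R3 (x axis, cut at -2 and 2) for the 45 replication genes (orange), 30 mitosis genes (green) and all 10720 genes tested (grey). The replication curve crosses the middle at -0.41, the mitosis curve at -0.11 and that of all genes at -0.05.

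Genes of the same pathway outside the 45 moved in the same direction in E14.5 R3. Of 49 other replication genes, among them further polymerase, origin and checkpoint subunits, 29 fell and 2 rose, with a median log2 difference of -0.33. Of 30 genes of mitosis, the later phase of the cycle, 9 fell and 0 rose, with a median of -0.11. The share of all genes tested that fell was 20.7%, and by edgeR nearly as many of all genes rose as fell. The distribution of differences places the mitosis genes nearer to all genes than the replication genes.

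Because members moved together in E14.5 R3, their promoters were examined for short motifs in the window from 250 bases before to 30 bases after each transcription start (RefSeq, GRCm38.p6). Promoters were found for 36 of the 45 genes, 42 in all. E2F factors are the classical activators of S phase genes. An E2F-type motif (TTTCCCGC, TTTGGCGC, TTTCGCGC or TTTGCCGC on either strand, overlapping matches counted apart) was present in 26.2% of these promoters and in 2.12% of 32851 promoters of all genes. CCAAT was present in 57.1% and 36.1%. The motif TTTGAA, known from promoters of mitosis genes, was present in 11.9% of replication promoters, 59.3% of the 27 promoters of the mitosis genes and 17.2% of all. Of 11 genes with an E2F-type match 9 were called lower in E14.5 R3, and of 25 without one 20 were. A match describes letters in the window and no more.

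Shown are the promoters of the 2 genes with the widest genotype differences, Ccne1 and Orc2 (the outermost of its 2 starts), which hold no E2F-type match, and of Orc1 and Mcm6, which do. Each runs 5′ to 3′ in the direction of the gene, in GRCm38.p6, with E2F-type matches in capitals. In Mcm6 the left run holds 2 overlapping matches, and in Orc1 the match lies 27 bases before the start. The Orc2 promoter shown holds 1 GATA-type match, left in lower case. Orc1 was called lower in E14.5 R3 and Mcm6 was not.
Ccne1, chr7:38107461-38107740, minus strand: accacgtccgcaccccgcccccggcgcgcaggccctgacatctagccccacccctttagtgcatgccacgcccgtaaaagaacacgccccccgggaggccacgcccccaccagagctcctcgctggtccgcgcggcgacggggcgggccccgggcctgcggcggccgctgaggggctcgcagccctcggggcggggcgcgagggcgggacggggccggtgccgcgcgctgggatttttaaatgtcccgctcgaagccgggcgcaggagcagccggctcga
Orc2, chr1:58505080-58505359, minus strand: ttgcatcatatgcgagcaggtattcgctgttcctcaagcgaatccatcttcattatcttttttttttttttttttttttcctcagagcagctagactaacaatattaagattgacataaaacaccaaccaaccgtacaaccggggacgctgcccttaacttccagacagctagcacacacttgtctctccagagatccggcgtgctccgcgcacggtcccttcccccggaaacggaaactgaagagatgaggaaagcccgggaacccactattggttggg
Orc1, chr4:108579204-108579483, plus strand: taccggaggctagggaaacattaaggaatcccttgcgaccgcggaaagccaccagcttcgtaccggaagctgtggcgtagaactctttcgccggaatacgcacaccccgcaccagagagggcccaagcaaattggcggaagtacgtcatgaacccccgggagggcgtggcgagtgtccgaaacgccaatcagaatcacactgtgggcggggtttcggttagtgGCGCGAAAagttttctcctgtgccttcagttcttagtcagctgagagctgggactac
Mcm6, chr1:128359676-128359955, minus strand: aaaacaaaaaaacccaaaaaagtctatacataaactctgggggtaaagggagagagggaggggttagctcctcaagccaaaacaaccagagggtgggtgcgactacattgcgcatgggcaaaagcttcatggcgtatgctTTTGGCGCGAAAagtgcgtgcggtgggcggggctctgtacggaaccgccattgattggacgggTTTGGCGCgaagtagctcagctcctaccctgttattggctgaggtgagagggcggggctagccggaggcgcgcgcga

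In E12.5 R3, 12 members fell and 2 rose, while 21.7% of all genes fell and 14.2% rose. The share of members that fell was near that of all genes, and the share that rose was below it. edgeR called 7 lower and 4 higher, beside 19.7% and 16% of all genes. The median member differed by -0.06, and the balance turned with the scaling: upper-quartile scaling gave 3 lower and 13 higher, and quantile normalisation 3 lower and 16 higher. Upper-quartile scaling moved the median of all genes by over 0.1, from -0.00 to 0.15. The count lower was 6 without wild type replicate 3 and 5 and 6 without Gata1s replicates 1 and 2. Erythroblast markers of E12.5 R3 summed to 337575 to 340717 in Gata1s, below the 611163 to 874138 of wild type, and their part was not tested.

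Beside Ccne1, Orc2 and Cdt1, Pold2 was among the members with the smallest p in E12.5 R3. It read 984, 1045 and 786 in wild type and 609 and 615 in Gata1s libraries, without overlap (log2 difference -0.48, SE 0.09, adjusted p = 7.05e-04). Mcm2, Mcm3 and Pold1 were called lower as well, by -0.29, -0.26 and -0.25 on the log2 scale. Gins4, Pola1, Prim2, Fen1 and Rpa1 were called lower by limma and not by edgeR. The 2 members called higher were Rfc4, a clamp loader subunit, with 1962, 1800 and 1871 against 2336 and 2248, and Gins1 with 1136, 1013 and 1031 against 1225 and 1262. Both genes had their Gata1s libraries above all wild type libraries, with log2 differences of 0.28 and 0.26 (adjusted p = 0.0167 and 0.0397). Neither was called without wild type replicate 3 (0.28 and 0.26) or without Gata1s replicate 1 (0.26 and 0.28), and Gins1 was also lost without wild type replicate 2 (0.23), without Gata1s replicate 2 (0.24) and under further alternatives, among them no filter on low values (0.26).

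In R1/2 the members differed little. At E12.5, 5 fell and no other was called, against 4.6% of all genes lower, and at E14.5, 3 fell and 1 rose, against 5.13% lower and 5% higher. The median log2 differences were -0.09 and -0.02. Prim1, the catalytic primase subunit, was called at both days, with 1309 and 1445 in wild type against 1099, 1069, 1188 and 1205 in Gata1s libraries at E12.5. At E14.5 it read 1312 and 1533 against 1198, 1282 and 1238. Gata1s libraries were below wild type at both days (log2 differences -0.27 and -0.22, adjusted p = 0.00531 and 0.0268). Orc1 (820 and 802 against 617, 578, 709 and 705) and Prim2 (1264 and 1193 against 999, 1041, 1032 and 1058) completed the calls at E12.5, again without overlap.

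In libraries with the prefix MS alone, 1 member was called at E12.5, with Ccne1 at -0.37 and Orc2 at -0.26, both short of the threshold, and at E14.5 5 were lower and 1 higher. Without wild type replicate 1 of E12.5 R1/2 none of the 5 passed, although Ccne1 and Orc2 still differed by -0.45 and -0.29, and without Gata1s replicate 1 or 2 the count was 3. Without wild type replicate 2 of E14.5 R1/2 none of the 3 passed, with Ccne1 at -0.41 and Orc2 at -0.20, and without Gata1s replicate 2 or 3 the count was 1. Wild type replicate 1 of E14.5 R1/2 carried the highest sum of neutrophil and monocyte markers of that set, 19552, against 742 in replicate 2 and 4697 to 4886 in Gata1s libraries. In the same set the sums were lower in Gata1s, without overlap, for markers of erythroblasts (45178 to 49039 against 49476 to 85251), macrophages (79 to 100 against 134 to 150) and mast cells and basophils (3 to 7 against 12 to 29), and higher for endothelial markers (57 to 85 against 15 to 27). In E12.5 R1/2 erythroblast markers were lower in Gata1s (31942 to 43083 against 45070 to 45320), while neutrophil and monocyte markers (1303 to 3086 against 236 to 1124) and endothelial markers (73 to 136 against 23 to 59) were higher, again without overlap. None of the mast cell and basophil markers passed the filter on low values. The part of these marker lists in the R1/2 results was not tested.

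Averaged over the 4 combinations, 26 members were called, all lower, beside 25.6% of all genes lower and 19.7% higher, with a median of -0.15 against -0.03 over all genes. edgeR called 24, beside 23.8% of all genes lower. Ccne1 averaged -0.83 (SE 0.06, adjusted p = 1.83e-08), Orc2 -0.73 (SE 0.04, 7.53e-10), Prim2 -0.39 (SE 0.04, 8.97e-07) and Pold1 -0.36 (SE 0.04, 8.85e-07). Ccne2, Gmnn and Cdt1 averaged -0.25, -0.14 and -0.11 (adjusted p = 0.0122, 0.00974 and 0.0303). Under quantile normalisation the count was 12 and under upper-quartile scaling 18, and none of these last 3 was called under either. Cdt1 was also lost under edgeR (-0.10) and without 1 library (-0.09 to -0.11), be it Gata1s replicate 1 or 2 of E12.5 R1/2, Gata1s replicate 2 of E12.5 R3, replicate 1 of either genotype in E14.5 R1/2, or replicate 2 of either in E14.5 R3.

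The genotype difference itself changed with the day in R3. Tested as the difference between the E14.5 and the E12.5 effect, 24 members were called, all with a lower value at E14.5, while 9.54% of all genes were called lower. The share of all genes called higher in this test is not given here. edgeR called 22, beside 6.9% of all genes. The median was -0.35 over the members and -0.01 over all genes. Rfc4 led, with a change of -0.86 (SE 0.12, adjusted p = 2.48e-04). It went from 2336 and 2248 normalised counts in Gata1s at E12.5 to 1350 and 1210 at E14.5, and from 1962, 1800 and 1871 to 2050 and 1771 in wild type. Ccne1 followed with -0.83 (adjusted p = 0.00248), Pole2 with -0.68 (5.08e-04), Pold1 with -0.68 (3.73e-04) and Prim2 with -0.66 (8.31e-04). Next came Orc2 with -0.63 (8.41e-04), Gins3 with -0.605 (0.0197) and Gmnn with -0.60 (0.00177). Ccne2 (-0.25) and Cdt1 (-0.08) were not called. By role, 7 of 9 polymerase genes, 5 of 10 at the clamp, loader and fork, 3 of 5 of Cdc45 and GINS and 1 of 4 of nucleotide supply were called. The count was 11 without Gata1s replicate 2 of E14.5 R3 and 15 without wild type replicate 1. This comparison and the E14.5 R3 difference share their libraries.

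Over time within R3, most members fell in Gata1s and few in wild type. From E12.5 to E14.5, 29 members fell and 3 rose in Gata1s R3, beside 30.5% of all genes lower and 29.5% higher. In wild type R3 2 fell and 9 rose, beside 19.5% and 21.1%. In R1/2 limma called 0 members in either genotype, beside 0.252% of all genes lower and 0.784% higher in wild type and 0.243% and 1.08% in Gata1s, and 2 in wild type and 7 in Gata1s had an unadjusted p under 0.05. edgeR called 0 in either as well. The risers in Gata1s R3 were Rrm2, Tyms and Rpa1, by 0.78, 0.56 and 0.24 on the log2 scale, and all 3 also rose in wild type R3, by 0.49, 0.33 and 0.24. Upper-quartile scaling gave 37 lower and 2 higher in Gata1s R3 and 11 lower and 2 higher in wild type R3, and quantile normalisation 41 and 0, and 18 and 0. Over both sorts, 22 members were lower and 4 higher at E14.5 in Gata1s, against 26.7% and 27.3% of all genes. Pold1, Orc2, Rfc4 and Pole2 had the smallest p among the lower ones (log2 differences -0.39, -0.38, -0.38 and -0.32), Ccne1 was at -0.36 and Gmnn at -0.13, and the 4 higher were Rrm2 (0.45), Tyms (0.35), Rpa1 (0.22) and Pola1 (0.14). In wild type 1 was lower, Pold2 (-0.21), and 8 were higher, against 14.3% and 17.9% of all genes, with Rpa1, Tk1, Tyms and Prim2 at 0.20, 0.26, 0.26 and 0.21.

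The direction in wild type depended on the scaling. Over both sorts upper-quartile scaling gave 2 higher and 5 lower members in wild type and quantile normalisation 0 and 9, while in Gata1s they gave 32 and 39 lower. The count of 8 higher was 3, 5 and 4 without wild type replicate 2 of E12.5 R1/2, E12.5 R3 and E14.5 R1/2. The 22 lower in Gata1s were 14 without either Gata1s library of E12.5 R3 and 10 without Gata1s replicate 2 of E14.5 R3.

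Most replication genes had higher normalised counts in R3 than in R1/2, although at E14.5 their summed share of all counts was lower in R3 (0.74 to 1.04% over both genotypes, against 1.15 to 1.21%). In wild type, 39 members rose and 3 fell between R1/2 and R3, over both days, against 40.1% of all genes higher and 44.7% lower, with a median log2 difference of 0.61 beside -0.09. In Gata1s 36 rose and 4 fell, against 39.6% and 43.6%, with a median of 0.53 beside -0.08. The map of all libraries shows the step between the sorts as its main feature.

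**Figure D4:**
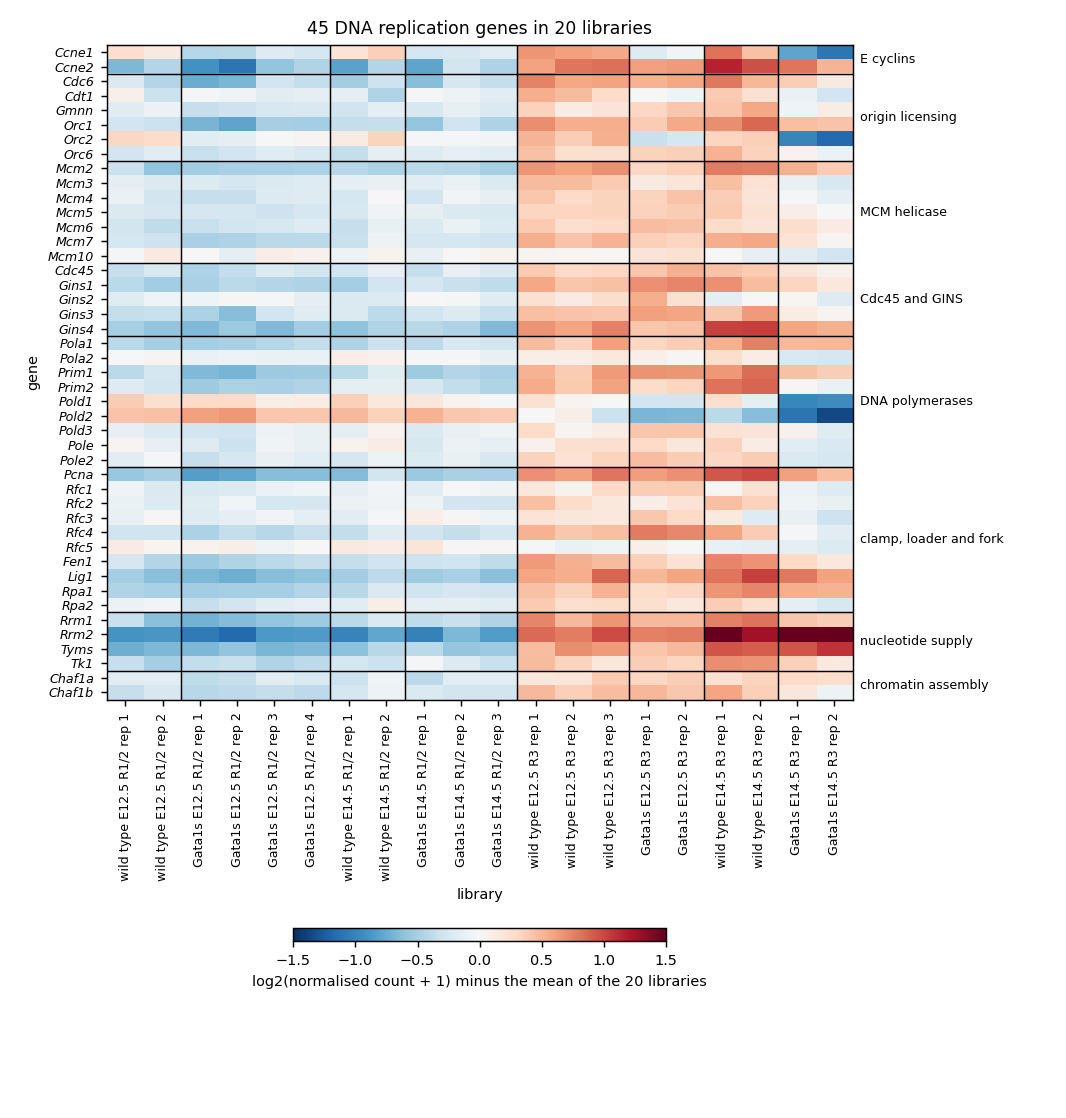
Each of the 45 genes (y axis, grouped by role) in each of the 20 libraries (x axis, grouped by sort, day and genotype), as log2(normalised count + 1) minus the gene's mean over the 20 libraries; the colour scale runs from -1.5 (blue) to 1.5 (red). Most genes are blue in R1/2 and red in R3, Pold1 and Pold2 run the other way, and the 2 Gata1s libraries of E14.5 R3 are paler than the 2 wild type ones for most genes, with Rrm2 and Tyms red in both.

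Rrm2 changed most, with 6445 and 6573 normalised counts in R1/2 and 21706, 20535 and 23631 in R3 of wild type at E12.5, and 33970 and 28808 in R3 at E14.5. Its rise was 2.02 on the log2 scale (SE 0.07) in each genotype, and the difference between them was -0.01 (95% interval -0.22 to 0.21). Tyms rose by 1.37 in wild type and 1.32 in Gata1s, Pcna by 1.34 and 1.15, and Gins4 by 1.39 and 1.05. Prim1 rose by 0.96 and 1.02, and Ccne2 by 1.51 and 1.16, while Gmnn rose by 0.54 and 0.39. Pold2 and Pold1 fell in both genotypes, Pold2 by 0.74 and 1.35 on the log2 scale and Pold1 by 0.22 and 0.67. Pold2 read 1321 and 1334 in wild type E12.5 R1/2 and 984, 1045 and 786 in R3. Rfc5 fell in wild type (-0.21) and was not called in Gata1s (-0.08).

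The direction of these calls depended on the scaling of the libraries. Upper-quartile scaling moved the median of all genes between the sorts to -0.43 in wild type and left 29 members higher and 7 lower, with a member median of 0.27. Quantile normalisation gave 18 higher and 17 lower, with a member median of 0.10 beside -0.11 over all genes. In Gata1s the counts were 26 and 8, and 18 and 16. Under every scaling the member median lay above that of all genes in this comparison. Of 30 mitosis genes all 30 rose in both genotypes with the deposited scaling, with medians of 1.65 and 1.41.

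Maturation differed between the genotypes for 12 members, all with a lower change in Gata1s, beside 12.9% of all genes lower and 8.81% higher, and edgeR called 9, beside 10.2%. Orc2 differed most, by -0.83 (SE 0.08, adjusted p = 2.36e-06): it rose by 0.15 on the log2 scale in wild type and fell by 0.68 in Gata1s, with the deposited scaling. Ccne1 rose by 0.39 in wild type and fell by 0.26 in Gata1s, a difference of -0.64 (SE 0.12, adjusted p = 0.00111). Cdt1 rose by 0.57 in wild type and changed by 0.06 in Gata1s (difference -0.50, adjusted p = 3.32e-04), though under quantile normalisation its wild type change was -0.11. For Pold2 and Pold1 the fall was deeper in Gata1s, by -0.61 and -0.45 (adjusted p = 2.10e-04 and 4.04e-04). Ccne2 (-0.35) and Gmnn (-0.14) were not called. The fall of Ccne1 in Gata1s was lost without Gata1s replicate 2 of E14.5 R3 (-0.19), and its rise in wild type was 0.04 under upper-quartile scaling and -0.37 under quantile normalisation. Under upper-quartile scaling 8 members had a lower and 1 a higher change in Gata1s, and under quantile normalisation 3 and 3.

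**Figure D5:**
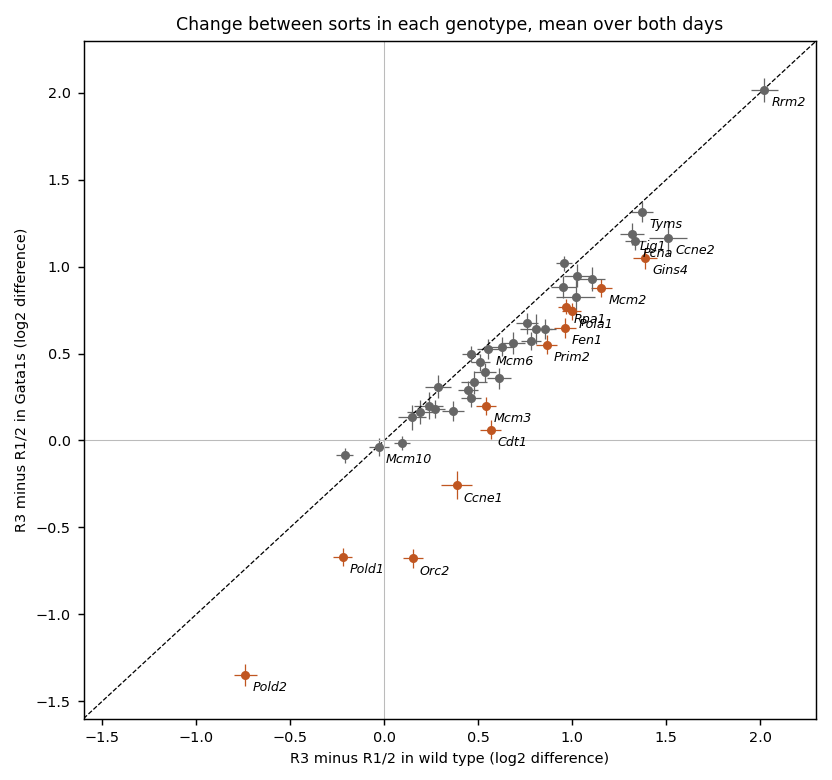
Log2 difference between R3 and R1/2 in Gata1s (y axis) against that in wild type (x axis) for each of the 45 genes, as means over both days with bars of 1 standard error; the dashed line marks equal change. Orange points are the 12 genes whose change differed between genotypes, all below the line, with Orc2 at 0.15 and -0.68 and Ccne1 at 0.39 and -0.26.

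Taken by day, the step from R1/2 to R3 had 39 members higher and 3 lower in wild type at E12.5, beside 35.9% and 39.1% of all genes, and 36 and 3 at E14.5, beside 37.7% and 41.6%. In Gata1s it had 39 and 3 at E12.5, beside 33.9% and 35.1%, and 27 and 7 at E14.5, beside 38.7% and 43%. The medians were 0.63, 0.64, 0.69 and 0.30. At E14.5 quantile normalisation gave 13 higher and 17 lower in wild type. In Gata1s at E14.5 the balance turned with the scaling, to 12 higher and 20 lower under upper-quartile scaling and 8 and 28 under quantile normalisation, where the member median of -0.34 lay below that of all genes (-0.13). Summed over the 45 genes, the wild type libraries of E12.5 R3 reached 231303 to 247139 and those of Gata1s 224527 to 227822. At E14.5 the sums of R3 libraries were 260997 to 270891 with the wild type allele and 211333 to 224539 with the other. In R1/2 they ran from 124582 to 150511 over all libraries of both genotypes. As a share of all counts of a library, the 45 genes did not follow the same order. In wild type they made up 1.15 to 1.23% of R1/2 and 1.17 to 1.36% of R3 libraries at E12.5, and 1.15 to 1.19% and 0.80 to 1.04% at E14.5. In Gata1s they made up 1.07 to 1.15% of R1/2 libraries and 1.5% of both R3 libraries at E12.5, and 1.15 to 1.21% and 0.74 to 0.81% at E14.5. By share, then, R3 lay below R1/2 at E14.5 in both genotypes, Gata1s lay above wild type in E12.5 R3, and the genotypes overlapped in E14.5 R3. With the 10 most abundant genes left out of the total, the share in E14.5 R3 was 1.04 to 1.33% in wild type and 0.91 to 1.01% in Gata1s, without overlap. Sums and shares weight the genes by their own counts.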

How the data were processed

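Poly-A selected, directional RNA libraries were sequenced, per the labels' protocols. The authors deposited a signal table of normalised counts per gene. Trim Galore, Bowtie2, TopHat2, HTSeq and DESeq2, with mm9 and mm10 as builds, appear in the submitters' processing notes. For the RNA libraries, their roles are not given in the sources used here. Of 23420 entries, 27 with dates as names (0.2 to 0.36% of a library's counts) were dropped, and 1 column that matched no sample was not used. The header of that column has the form of a Gata1s E12.5 R3 library with the name prefix JC.

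Each library's lowest non-zero value was taken as 1 read. All values (100%) then came out whole within 0.001, and 1 read was worth 0.36 to 4.72 normalised counts. Replicate pairs (17) correlated at 0.965 to 0.994 and differed beyond counting noise. Log2(normalised count + 1) was fitted with limma 3.58.1 (R 4.3.3, empirical Bayes with trend) for the 10720 genes whose mean was 10 or more, with 8 group means and a term for the prefix of library names (JC or MS, meaning not given), leaving 11 residual degrees of freedom, 15.8 with the prior. Among the libraries used, Gata1s R3 has MS libraries only. Folds are on this scale and understate low genes. Calls used Benjamini-Hochberg adjusted p under 0.05 per comparison. edgeR 4.0.16 on recovered reads, which called 1642 genes lower and 1537 higher in E14.5 R3, is given beside limma. The reason is that on simulated data limma made many more false calls than edgeR in E14.5 R3, where depth is lowest. Those data were drawn with dispersions that edgeR had estimated, which favours edgeR, so they do not rank the methods on the real libraries. DESeq2 1.42.0 was an alternative.

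Members and lists were chosen with earlier results of these data known. Per-library values are given for Ccne1, Ccne2, Cdt1, Gmnn and, per comparison, up to 4 called members with the smallest adjusted p in each direction and any called against the majority; genes outside this rule that are named with values were chosen by role or after their values were seen. Figures used matplotlib 3.10.9.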

Additional observations from a re-analysis of the deposited data

Results flagged for a closer look

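The effect of the genotype differed between the days in R3, by the test of that difference in limma, for 24 members, all with a lower value at E14.5. Over all genes tested, 9.54% were called lower there, and the share called higher is not given. Among the genes named, the differences on the log2 scale were -0.83 for Ccne1, -0.60 for Gmnn, -0.86 for Rfc4 and -0.68 for Pold1. They were -0.68 for Pole2, -0.66 for Prim2, -0.63 for Orc2 and -0.605 for Gins3.

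The effect of the genotype also differed between the sorts, over both days, for 12 members, all lower in R3. Over all genes tested, 12.9% were called lower and 8.81% higher. The differences were -0.64 for Ccne1, -0.50 for Cdt1, -0.83 for Orc2, -0.61 for Pold2 and -0.45 for Pold1. Single libraries far from the rest of their group could be looked for only in Gata1s E12.5 R1/2, the one group of 4 libraries. None of the 45 genes had such a library there, where chance marks about 1 in 20. The smaller groups were not examined in this way.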

How the results depend on the processing

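Counts of members called lower (or higher where said), with main values in the report, moved by over 1.5 times as follows. Quantile normalisation gave 12 for the mean of 4 combinations, 3 for E12.5 R3, 3 for genotype by sort, 18 and 18 higher for R3 minus R1/2 in wild type and Gata1s, and 0 higher and 39 lower between days in wild type and Gata1s. It also turned 6 named genes: Ccne1 (-0.37) and Cdt1 (-0.11) between sorts in wild type, Rpa1 (-0.026) between days in wild type, and Rrm2 (-0.063), Rpa1 (-0.15) and Pola1 (-0.18) between days in Gata1s. Upper-quartile scaling gave 3 for E12.5 R3 and 2 higher between days in wild type. edgeR and voom gave 7 for E12.5 R3, and voom 5 higher between days in wild type. Without the prefix term E12.5 R1/2 and E14.5 R1/2 gave 3 and 1, with MS libraries only 1 and 5, and with JC libraries only 0 for E14.5 R1/2. With only the groups compared, E14.5 R1/2 and E14.5 R3 gave 1 each. Centring on the median gene gave 13 between days in Gata1s. The causes were not tested. voom, the JC libraries and the centring were chosen after seeing the data.

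Same-numbered libraries correlated in their deviations at -0.17 to 0.31 over 16 pairs, with fewer than 3 pairs per comparison. These correlations can neither show nor exclude pairing of libraries. Only replicate numbers were used, and libraries with adjoining numbers in their names were not tested as pairs. The sorts were fitted as unpaired. With the replicate block the counts were 2, 4 and 1 for E12.5 R1/2, E12.5 R3 and E14.5 R1/2, 14 by day, 4 by sort, 5 higher between days in wild type and 13 lower in Gata1s. It was 31 for E14.5 R3.

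Leaving out 1 library gave 23 to 30 for the mean, 0 to 5 for E12.5 R1/2, 5 to 14 for E12.5 R3, 0 to 4 for E14.5 R1/2, 24 to 38 for E14.5 R3, 11 to 26 by day and 10 to 16 by sort. Between sorts it gave 38 to 41 higher in wild type and 33 to 37 in Gata1s, and between days 3 to 10 higher in wild type and 10 to 24 lower in Gata1s. Of 75 called results for named genes, edgeR and DESeq2 each kept 74, upper-quartile scaling 66 and quantile normalisation 57, the lowest of the alternatives run on all 75. A fit of only the groups compared kept 10 of the 21 it covers, and JC libraries alone kept 3 of 8. In E14.5 R3, wild type replicate 1 held 15.8 M reads and the other 3 libraries 6.9 to 10.6 M, which limits that comparison.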

Other observations

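The term for library prefix was itself called for 9 members, 4 lower and 5 higher in MS than in JC libraries, with a median log2 difference of 0.04. Over all genes 570 were lower and 992 higher. The members lower in MS were Cdt1 (-0.203), Pold1 (-0.195), Pold2 (-0.19) and Rfc2 (-0.133). Those higher were Ccne2 (0.28, adjusted p = 0.0240), Chaf1a (0.169), Prim1 (0.155), Pcna (0.147) and Pola1 (0.123). Ccne1 differed by 0.01 and was not called.

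Among the 8 groups, the highest mean of a member lay in wild type E14.5 R3 for 22 genes and in Gata1s E12.5 R3 for 15. The lowest lay in Gata1s E12.5 R1/2 for 28 and in Gata1s E14.5 R3 for 10. The ratio of the highest to the lowest group mean was 2.98 for Ccne1 and 3.49 for Ccne2.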
